A study of Sus scrofa with 18 samples.

Results

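The miR-29 family of microRNAs (miRNAs) was examined in backfat, a subcutaneous fat depot, through small RNA libraries of 18 pigs of the Italian Large White breed. Its members were taken by name from the deposited table of read sequences, as every entry whose mature miRNA is ssc-miR-29a, ssc-miR-29b or ssc-miR-29c (ssc marks the pig, and is left out below), and 3 of the 240 mature miRNAs listed qualified. Only 1 arm of each hairpin was listed. The libraries fell into 9 of pigs with high backfat deposition, from 5 castrated males and 4 females, and 9 of pigs with low backfat deposition, from 4 castrated males and 5 females. Pigs were 235 to 250 days old in the high class and 233 to 249 days old in the low class, and all weighed 150 to 160 kg. They shared 1 environment and 1 diet, and their fat was taken at slaughter. The labels give each library its own animal number, so that a library stood for 1 pig.

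A miRNA guides a silencing complex to messenger RNAs that pair with its seed, the short stretch near its 5′ end, and lowers the output of those messengers. miR-29 is best known in mammals for repressing collagens, elastin and other genes of the extracellular matrix, and it is low in many fibrotic tissues. The family is encoded in 2 clusters, and in the Sscrofa11.1 annotation MIR29B-1 is the direct neighbour of MIR29A, and MIR29B-2 that of MIR29C, with 0 annotated genes between them. In cultured mouse fat cells miR-29 has also been tied to insulin signalling.

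The sequences below show the annotated forms, the forms that dominated in pig fat, and the variants the results turn on, as the deposited table gives them (5′ to 3′, T for U). Capitals mark the seed, bases 2 to 8 of the read.
miR-29a, annotated: cTAGCACCatctgaaatcggtta
miR-29a, most abundant: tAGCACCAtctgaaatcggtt
miR-29a, second most abundant: tAGCACCAtctgaaatcggtta
miR-29b, annotated and most abundant: tAGCACCAtttgaaatcagtgtt
miR-29c, annotated and most abundant: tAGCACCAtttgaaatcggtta
miR-29a, most abundant early start: cTAGCACCatctgaaatcggtt
miR-29b, most abundant early start: cTAGCACCatttgaaatcagtg
miR-29c with an added adenine: tAGCACCAtttgaaatcggttaa
miR-29a with T at base 2: tTGCACCAtctgaaatcggtt

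Counted from 1 at the first base of the read, the 22-base form of miR-29a differed from the annotated miR-29c by C10T alone. The first 22 bases of miR-29b differed from miR-29c at 3 positions, A18G, G21T and T22A. The first 9 bases were the same in all 3 members, and the first 17 in miR-29b and miR-29c.

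The table listed 160 distinct read sequences under miR-29a, 27 under miR-29b and 84 under miR-29c, 261 in all, since 10 stood under more than 1 member. Reads of those 10 made up 0.0612% of the miR-29a counts, 0.424% of the miR-29b counts and 0.236% of the miR-29c counts, as means over libraries, so that the members were nearly free of shared reads. The 27 sequences of miR-29b came from 2 precursors. Of these, 26 were listed under both with identical counts, and cannot be assigned to mir-29b-1 or mir-29b-2. The remaining one, a 24-base form listed under mir-29b-2 alone, held 0.724% of the miR-29b counts.

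Library totals ran from 9601510 to 34588252 counts. Over these totals miR-29b rested on 275 to 1109 counts per library, miR-29c on 4279 to 20100 and miR-29a on 12359 to 63145, so that a share within miR-29b is the least precise. The library of high replicate 6 stood apart from the rest: its TMM factor, which scales a library's total for its composition, was 1.37, the highest of the 18, and its levels of miR-29b and miR-29c were the lowest of the 18. The library codes formed 4 runs of consecutive numbers, and the 4 libraries coded AC485 to AC488 held 1 pig of the high class and 3 of the low class.

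miR-29a was the main member, miR-29c followed, and miR-29b was rare. Over the 18 libraries miR-29a held 75.03% ± 2.71 of the family's counts, miR-29c 23.4% ± 2.49 and miR-29b 1.56% ± 0.295 (SD). miR-29a was 3.26 ± 0.555 times as abundant as miR-29c and 50.1 ± 12.6 times as abundant as miR-29b (SD, n = 18). Among the 240 mature miRNAs, miR-29a ranked 45th by mean share of counts with 0.146%, miR-29c 71st with 0.0452% and miR-29b 151st with 0.0030%. The order of the members was the same in each of the 18 libraries, with miR-29a ranked 40th to 49th and miR-29c 62nd to 85th. Kits capture different small RNA ends with different efficiency, so a ratio between members need not equal that of the molecules in the tissue.

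The question of the series was which small RNAs differ between pigs of high and low fat deposition. miR-29a, miR-29b and miR-29c did not pass the test in this comparison. miR-29a ranged from 1094 to 1933 CPM (counts per 1000000 after TMM scaling) with a median of 1339 in high backfat, and from 1230 to 1877 with a median of 1455 in low backfat. The 2 lowest libraries and the highest one were all of the high class, and the classes overlapped over most of their range. miR-29c ranged from 261 to 562 CPM with a median of 452 in high backfat, and from 346 to 613 with a median of 477 in low backfat. miR-29b ranged from 15.6 to 34.2 CPM with a median of 29.5 in high backfat, and from 22.1 to 42.1 with a median of 30.9 in low backfat. For both, the lowest library belonged to the high class and the highest to the low class, and the remaining ones overlapped.

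**Figure D1:**
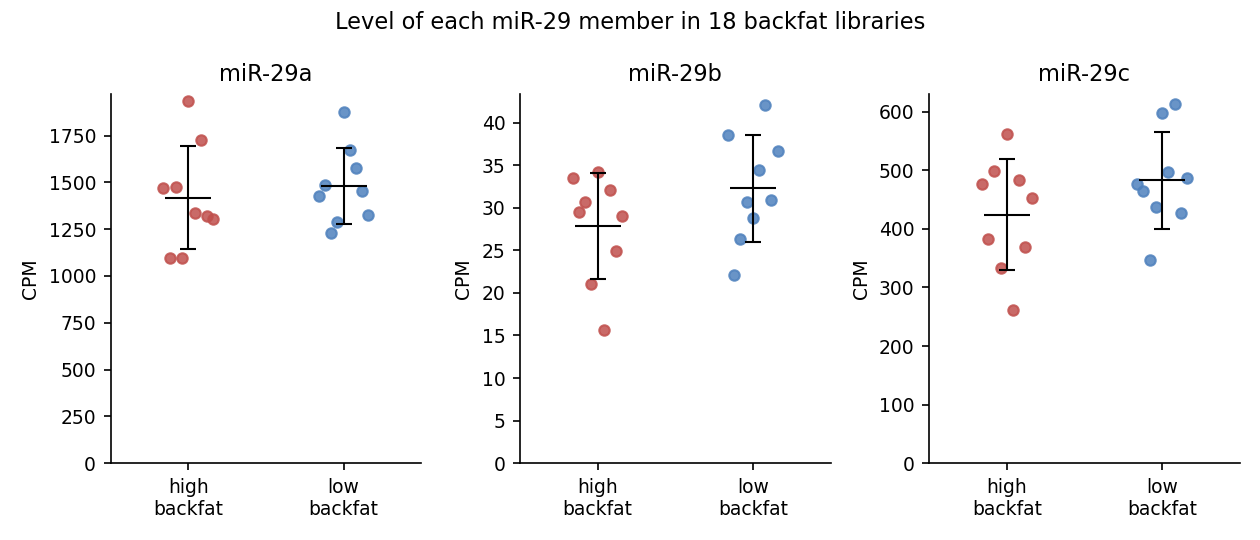
Level of miR-29a, miR-29b and miR-29c in CPM (y axis, from 0, with its own scale for each member) in pigs of high and low backfat (x axis). Points are libraries, and the black bars give the mean and SD of 9 libraries. The classes overlap for each member, and the lowest miR-29b value, 15.6 CPM, and the lowest miR-29c value, 261 CPM, belong to the same library of the high class.

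Means were 1418 ± 275 CPM in high and 1482 ± 203 CPM in low backfat for miR-29a, 27.9 ± 6.19 and 32.3 ± 6.27 CPM for miR-29b, and 424 ± 94.5 and 483 ± 82.6 CPM for miR-29c (SD, n = 9 each). edgeR's quasi-likelihood fit, which held sex as a covariate, gave log2 fold changes of -0.07 ± 0.12 for miR-29a (SE, adjusted p = 0.749), -0.24 ± 0.16 for miR-29b (adjusted p = 0.344) and -0.22 ± 0.13 for miR-29c (adjusted p = 0.313). None of the 3 was thus called, where 8 of all 221 tested miRNAs, 3.62%, were, and 0 to 13 when 1 library was left out. The 3 together made up 0.193% ± 0.0372 of all counts in high and 0.195% ± 0.0200 in low backfat (SD, n = 9 each). Such a share is scaled by the library total alone, without the TMM correction for composition. By its share miR-29a had the higher mean in high backfat, 0.147% against 0.145%, whereas its mean CPM was the lower there. In whole tissue, fewer cells that hold a miRNA and less of it per cell cannot be told apart. With SEs of 0.12 to 0.16, a log2 fold change had to be several times its SE to pass. For scale, miR-199b-3p did not pass at -0.41 ± 0.13 (SE, edgeR adjusted p = 0.0715). Approximate 95% intervals from these SEs were -0.31 to 0.17 for miR-29a, -0.55 to 0.07 for miR-29b and -0.49 to 0.05 for miR-29c. Changes within those intervals were not excluded.

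No member passed between the sexes. Castrated males had 1465 ± 203 CPM of miR-29a and females 1435 ± 278, 31.6 ± 6.0 and 28.6 ± 6.90 CPM of miR-29b, and 485 ± 70.5 and 423 ± 103 CPM of miR-29c (SD, n = 9 each). The log2 fold changes of castrated males over females were 0.04 ± 0.12, 0.18 ± 0.16 and 0.23 ± 0.13 (SE), with adjusted p-values of 0.947, 0.688 and 0.628 in edgeR's quasi-likelihood test with class as a covariate. In that comparison 0 of 221 miRNAs (0%) passed in edgeR and 0 in DESeq2, with 17 at an unadjusted p under 0.05 in edgeR.

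Within the high class the females had the lower means of each member, and high replicate 6, the library that stood apart, was among these females. High females had 365 ± 93.6 CPM of miR-29c (SD, n = 4), against 469 ± 92.5 CPM in low females (SD, n = 5), and high castrated males had 472 ± 70.4 CPM (SD, n = 5), against 501 ± 77.7 CPM in low castrated males (SD, n = 4). The log2 fold changes of high over low in females were -0.22 ± 0.17 for miR-29a, -0.37 ± 0.22 for miR-29b and -0.36 ± 0.19 for miR-29c (SE, edgeR adjusted p = 0.637, 0.572 and 0.546), where 0% of all miRNAs were called, with 20 at an unadjusted p under 0.05 in edgeR and 0 called by DESeq2. Without 1 library those in females ran from -0.381 to -0.134 for miR-29a, -0.527 to -0.225 for miR-29b and -0.527 to -0.258 for miR-29c. For miR-29b and miR-29c the value nearest 0 was that without high replicate 6. In castrated males the log2 fold changes were 0.08 ± 0.17, -0.11 ± 0.22 and -0.09 ± 0.19 (SE, edgeR adjusted p = 0.782, 0.782 and 0.799), where 4.07% of all miRNAs were called. The contrast in castrated males minus that in females was 0.30 ± 0.23 for miR-29a, 0.26 ± 0.31 for miR-29b and 0.28 ± 0.27 for miR-29c (SE), with edgeR adjusted p-values of 0.741, 0.852 and 0.781, so no member was shown to differ between the sexes in its contrast. In that test 0 of 221 miRNAs (0%) were called by edgeR, 25 had an unadjusted p under 0.05, and DESeq2 called 3.

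**Figure D2:**
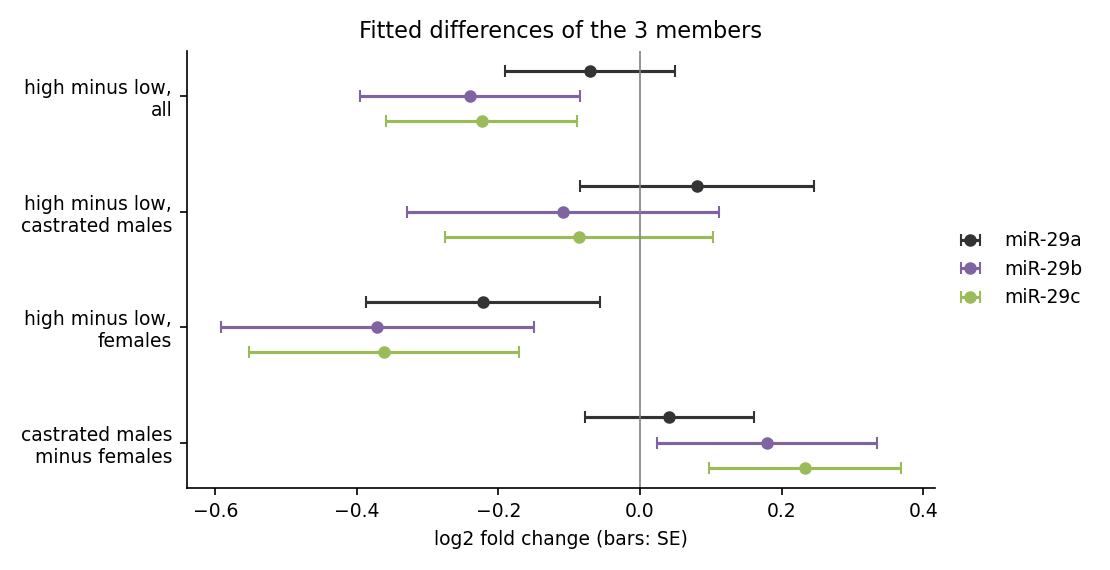
Fitted log2 fold changes with SE (x axis) of the 3 members in 4 contrasts (y axis), from edgeR. Values in castrated males lie at or near 0, from -0.11 to 0.08, and those in females from -0.37 to -0.22, and no value passed an adjusted p of 0.05.

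Ratios within a library, which need no scaling, did not separate the classes either. The log2 ratio of miR-29b over miR-29a averaged -5.68 ± 0.334 in high and -5.53 ± 0.332 in low backfat, that of miR-29c over miR-29a -1.75 ± 0.260 and -1.62 ± 0.154, and that of miR-29b over miR-29c -3.93 ± 0.116 and -3.91 ± 0.279 (SD, n = 9 each). Exact two-sided permutation tests over 48620 splits of 9 against 9 gave p = 0.356, 0.236 and 0.816, or 0.534, 0.534 and 0.816 after adjustment over the 3 ratios. Within the 4 runs of library codes the difference in the ratio of miR-29c over miR-29a ran from -0.25 to 0.06.

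Most reads of miR-29a did not start where its annotation does. The annotated sequence, which begins with a C ahead of the sequence common to the family, held 0.896% ± 0.212 of the miR-29a counts (SD, n = 18), and the 2 most abundant reads, which begin 1 base later, held 34.4% ± 1.3 and 28.0% ± 1.63. That later start was the base at which miR-29b and miR-29c were annotated and mostly read. It gave the seed AGCACCA to 87.5% of miR-29a, 78.7% of miR-29b and 96.8% of miR-29c counts, as means over 18 libraries. In the wider table, the most abundant read began at another base than the annotated one in 12 of 215 tested miRNAs with an annotated sequence listed, and 1 base later in 3. An annotated share at or below that of miR-29a was found for 4 of the 215, miR-29a included.

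The reads with the extra C, here called early starts, shift the seed by 1 base, to TAGCACC in place of AGCACCA. That seed itself stood in 9.54% of miR-29a and 19.9% of miR-29b counts, since some early starts carry a mismatch. All early starts made up 10.1% ± 1.53 of miR-29a counts, with a range of 7.79% to 13.1%, and 20.1% ± 5.54 of miR-29b counts, with a range of 10.5% to 29.3% (SD, n = 18). In miR-29c they made up 0.0787% ± 0.0959, from 4 sequences of which 2 were also listed under another member. Early starts of miR-29c were at 0 counts in 9 of the 18 libraries, where the exact (Clopper-Pearson, 95%) upper bound on their share was at most 0.0862%. The share of early starts was higher in miR-29b than in miR-29a in 18 of 18 libraries, by 9.93 points on average and by 2.08 to 17.9 points (exact two-sided sign-flip permutation p = 7.63e-06, the smallest that 262144 sign patterns can give). Over 174 miRNAs with a mean of at least 10 CPM, the median share of reads at another start than the main one was 0.340%, and miR-29b ranked 19th, miR-29a 32nd and miR-29c 76th.

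Reads with an early start also ended earlier on average. In miR-29b, unmodified reads with the main start were 23 bases long in 69.7% ± 3.94 of their counts, whereas those with the early start were 21 bases long in 41.0% ± 5.46 and 22 in 43.2% ± 4.25 (SD, n = 18). Counted from the main start, the 3′ end lay on average at base 20.7 in early-start and at base 22.5 in main-start reads, a difference of -1.76 ± 0.0967 bases (SD) that was negative in 18 of 18 libraries. In miR-29a the ends lay at base 20.9 and base 21.3, a difference of -0.39 ± 0.0226 bases, again negative in 18 of 18. Both gave the same smallest exact permutation p of 7.63e-06. The early-start read of miR-29a was most often 22 bases long, with 70.5% ± 2.68 of its unmodified counts, and that of the main start 21 bases, with 45.5% ± 1.55. Those reads end at the same base of the precursor, so in miR-29a the mean end differed and the most frequent end did not. These comparisons between members or starts, 7 in all with those at the 3′ end below, were chosen after the values were seen, and adjustment over the 7 left the p-values as they were.

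The early start of miR-29b had the higher mean in high backfat, but did not pass once all miRNAs were considered. It ranged from 17.6% to 29.3% with a median of 22.9% in the high class, and from 10.5% to 24.1% with a median of 13.9% in the low class. All 9 high libraries lay above the low median, and 4 low libraries, replicates 1, 2, 4 and 5, lay among the high ones. The means were 23.2% ± 4.23 and 16.9% ± 4.99 (SD, n = 9 each, exact permutation p = 0.0121), and the adjusted p over 174 miRNAs was 0.264. In that comparison 0% of the miRNAs passed after adjustment and 8.62% had an unadjusted p under 0.05. The difference was 9.28, 6.37, 7.01 and -0.35 points within the 4 runs of library codes, the first with 1 high library. With few counts the share is also imprecise: the 63 early-start counts among 275 of high replicate 9 gave 22.9% with an exact (Clopper-Pearson) 95% interval of 18.1% to 28.3%, and such intervals cover counting error only. In miR-29a the share averaged 10.4% ± 1.49 in high and 9.90% ± 1.62 in low backfat (SD, n = 9 each, exact permutation p = 0.522). In miR-29c the reads off the main start, nearly all of them late starts, had a mean share 0.273 points higher in high than in low backfat (exact permutation p = 0.0162, adjusted over all miRNAs 0.283). Its late starts alone held 1.10% ± 0.119 in high and 0.823% ± 0.250 in low backfat (SD, n = 9 each), with 9 of 9 high libraries above the low median and the classes overlapping.

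**Figure D3:**
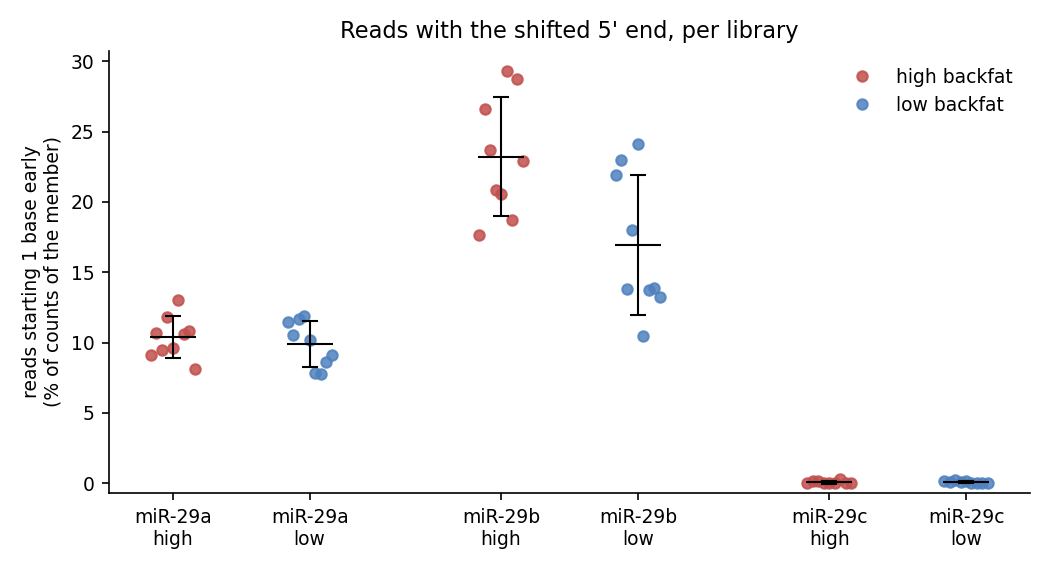
Percent of the counts of each member that start 1 base early (y axis) in pigs of high and low backfat (x axis). Points are libraries, and the black bars give the mean and SD of 9 libraries. Early starts are near 0 in miR-29c, between 7.79% and 13.1% in miR-29a, and between 10.5% and 29.3% in miR-29b, where the classes overlap.

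miR-29a and miR-29c end in the same bases, yet their reads differed in where the 3′ end lay and in the bases added to it. An adenine that the precursor does not encode followed an unmodified form in 10.8% ± 0.964 of miR-29c counts and 4.0% ± 0.330 of miR-29a counts (SD, n = 18). Main-start reads that stopped at the full annotated end, or held 1 A or T beyond it, were then taken alone, without those holding C or G there. Of these, 18.4% ± 1.62 of miR-29c and 9.87% ± 0.882 of miR-29a carried the added adenine. The next encoded base, a T, followed instead in 5.73% ± 0.441 of miR-29c and 7.25% ± 0.612 of miR-29a. An added uridine at that place would read the same. Reads 1 base short of the full end made up 29.3% ± 1.81 of miR-29c and 34.4% ± 1.3 of miR-29a counts. Adenine was higher in miR-29c in 18 of 18 libraries, and the encoded base and the shorter read were lower in miR-29c in 18 of 18, each with the smallest exact permutation p of 7.63e-06.

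**Figure D4:**
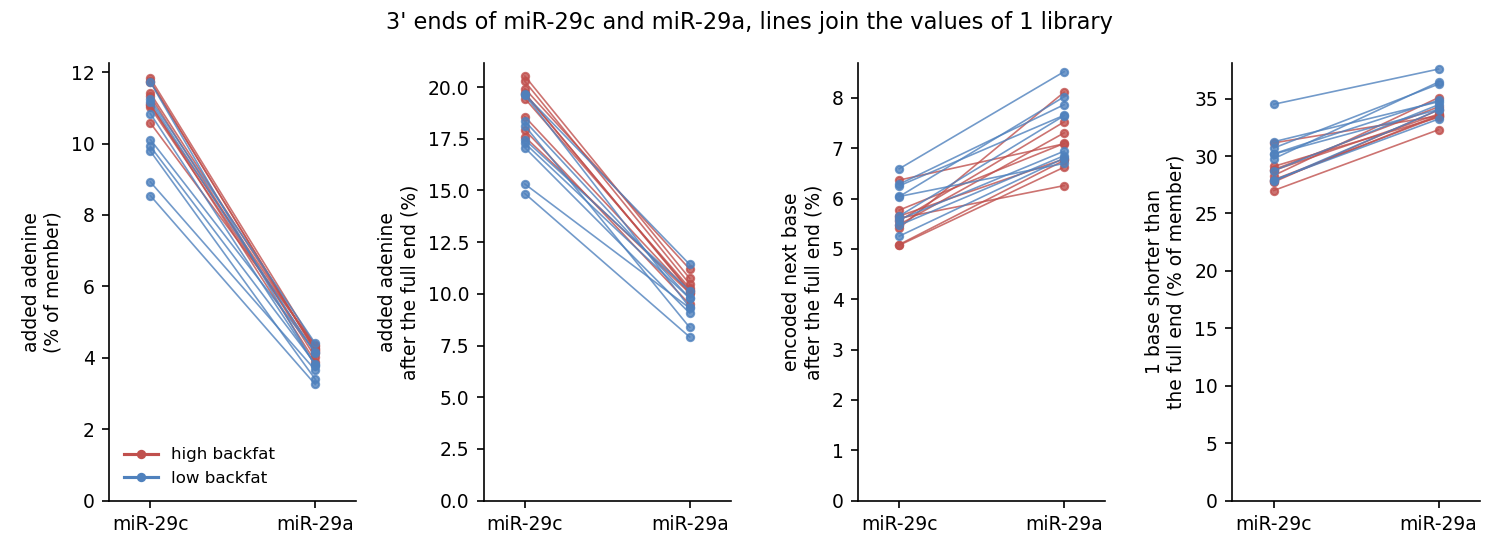
3′ ends of miR-29c (left) and miR-29a (right) in the same library, joined by a line and coloured by backfat class; y axes in percent, from 0. The share with an added adenine is higher in miR-29c in all 18 libraries (means 10.8% and 4.0%), and the encoded next base (5.73% and 7.25%) and the read 1 base shorter (29.3% and 34.4%) are lower.

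miR-29b, with another 3′ end, carried an added adenine on 6.58% of its counts, and the median over 215 tested miRNAs was 2.10%. By that share miR-29c ranked 21st, miR-29b 44th and miR-29a 64th. An added uridine, which can mark a miRNA for decay, was found on 2.59% of miR-29a, 0.219% of miR-29b and 1.22% of miR-29c counts, with a median of 1.66% over the same miRNAs. Added bases were counted only where they differ from the encoded one. Uridines added where a T is encoded are thus missing from these shares, which limits comparisons between miRNAs. For scale, an added guanine was found on 2.86% of miR-29a, 0.377% of miR-29b and 2.15% of miR-29c counts.

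The added adenine had the higher mean in high backfat in each member, as in most miRNAs, and passed in none of the 3. Means were 4.18% and 3.82% of counts in high and low backfat for miR-29a, 7.48% and 5.69% for miR-29b, and 11.3% and 10.25% for miR-29c. Exact permutation tests gave p = 0.0147, 0.0292 and 0.0128, and 0.166, 0.208 and 0.155 after adjustment over 158 miRNAs. Across those 158 miRNAs, 112 had the higher mean in high backfat, 0% passed after adjustment, and 16.5% had an unadjusted p under 0.05, of which 23 were higher and 3 lower. The differences for miR-29c within the 4 runs of library codes were 0.96, 2.35, 0.45 and 0.53 points. In the same order they were 0.28, 0.67, -0.0083 and 0.15 points for miR-29a, and 3.75, 3.997, 0.76 and -0.17 points for miR-29b. The higher mean in high backfat thus held within each run for miR-29c alone.

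By the categories of the deposited table, miR-29a consisted of 0.896% exact, 83.6% length, 14.8% 1-mismatch and 0.764% 2-mismatch forms, miR-29b of 50.3%, 39.2%, 9.25% and 1.21%, and miR-29c of 35.8%, 41.5%, 20.1% and 2.65%. The 5 most abundant forms of miR-29a were those of 21 bases (34.4%), 22 bases (28.0%) and 20 bases (9.82%) from the main start, the 22-base early start (6.26%) and the 23-base form with an added adenine (3.33%). Those of miR-29b were the annotated one (50.3%), its 22-base form (11.6%), the early starts of 22 bases (7.54%) and 21 bases (7.28%), and the 20-base form (5.28%). Those of miR-29c were the annotated one (35.8%), the 21-base (29.3%) and 20-base (8.97%) forms, the 23-base form with an added adenine (8.68%) and the 23-base form with the encoded T (2.70%).

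None of the 12 shares of members in these categories passed between the classes. The annotated form of miR-29a ranged from 0.720% to 1.29% with a median of 1.01% in high backfat, and from 0.570% to 0.948% with a median of 0.831% in low backfat. In the high class 8 of 9 libraries lay above the low median. The means were 1.03% ± 0.174 and 0.764% ± 0.162 (SD, n = 9 each, exact permutation p = 0.00506, adjusted over the 12 shares 0.0590). The 2-mismatch forms of miR-29c averaged 2.95% ± 0.351 in high and 2.35% ± 0.489 in low backfat (SD, n = 9 each, exact permutation p = 0.00983, adjusted 0.0590). Over 654 such shares of all miRNAs, 0% passed after adjustment over the whole table and 12.5% had an unadjusted p under 0.05, and there the adjusted p of these shares was 0.221 and 0.247. For the annotated miR-29a the adjusted p over the 12 shares fell under 0.05 in 4 of 18 repeats that left out 1 library (high replicates 1 and 9 and low replicates 1 and 4, lowest 0.00592), and the differences within runs of library codes were 0.02, 0.06, 0.56 and 0.12 points. The 2-mismatch share of miR-29c passed in 3 of 18 (high replicates 1 and 9 and low replicate 1, lowest 0.0168), and its length forms in 1 (high replicate 9, 0.0431).

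As single sequences, 89 of the 271 listed member forms had enough counts for the test, and 0 of them passed between the classes in edgeR's quasi-likelihood test, as did 0% of all 7330 entries of the table. An unadjusted p under 0.05 was reached by 6 of the 89 (6.74%), against 8.77% of all entries, and DESeq2 called 258 entries. The lowest adjusted p of a member was 0.288, for the 22-base form of miR-29b, with 2.71 ± 0.326 CPM in high and 3.76 ± 1.2 CPM in low backfat (SD, n = 9 each), or -0.48 ± 0.16 as a log2 fold change (SE). The most abundant miR-29a read had 449 ± 70.4 CPM in high and 474 ± 74.6 CPM in low backfat (SD, n = 9 each), or -0.08 ± 0.11 as a log2 fold change (SE, edgeR adjusted p = 0.995). The annotated miR-29c had 141 ± 18.7 and 156 ± 21.4 CPM (SD, n = 9 each), or -0.15 ± 0.11 as a log2 fold change (SE, edgeR adjusted p = 0.860).

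Base 10, the single base at which the miR-29a and miR-29c reads differ, was almost always 1 of the 2 bases the genes encode. In reads from the main start that match both over bases 1 to 9 and 11 to 20, it was C in 74.5% ± 2.57 of counts and T in 25.5% ± 2.60 (SD, n = 18). G made up 0.0433% and A 0.0116%.

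A mismatch within the seed, A2T, varied widely between libraries. It stood in 0.0812% to 3.04% of miR-29a counts, with means of 1.41% ± 1.18 in high and 1.31% ± 0.941 in low backfat (SD, n = 9 each). For 53 other miRNAs whose most abundant read has A at base 2, that read was compared with its form with T there. The T forms made up 0.100% to 3.04% of the summed counts of these 2 reads, with means of 1.41% in high and 1.27% in low backfat. The miR-29a rate is over all its counts, so the levels are not directly comparable. Over the 18 libraries the rates of miR-29a and of these other miRNAs had Pearson's r = 0.97 and Spearman's rho = 0.97 (permutation p = 1e-05 for both, the smallest that 100000 resamples can give), and r = 0.96 without the 2 libraries farthest from the median. The same T thus appeared in unrelated miRNAs, and its rate there rose and fell over the libraries with that of miR-29a.

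Over the 18 libraries miR-29c followed both other members, on reads listed under 1 member alone. For miR-29a and miR-29c, Pearson's r of log2 CPM was 0.73 and Spearman's rho 0.83 (permutation p = 0.00065 and 4e-05, adjusted over the 3 pairs 0.000975 and 0.00012), with r = 0.67 among high and 0.81 among low libraries. Leaving out the 2 libraries farthest from the median of miR-29a gave r = 0.67. For miR-29b and miR-29c, r was 0.81 and rho 0.66 (permutation p = 0.00017 and 0.00402, adjusted 0.00051 and 0.00603), with r = 0.95 among high and 0.47 among low libraries. Without high replicates 4 and 6, the farthest in miR-29b, r was 0.56 (permutation p = 0.0247). For miR-29a and miR-29b, r was 0.39 and rho 0.50 (permutation p = 0.114 and 0.0354, the same after adjustment), with r = 0.50 among high and 0.08 among low libraries, and r = 0.46 without the 2 farthest libraries. As a frame, the median rho over 5995 pairs of 110 miRNAs with a mean of at least 100 CPM was 0.01, and the 95th percentile 0.55. All such values share the scaling of the libraries.

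**Figure D5:**
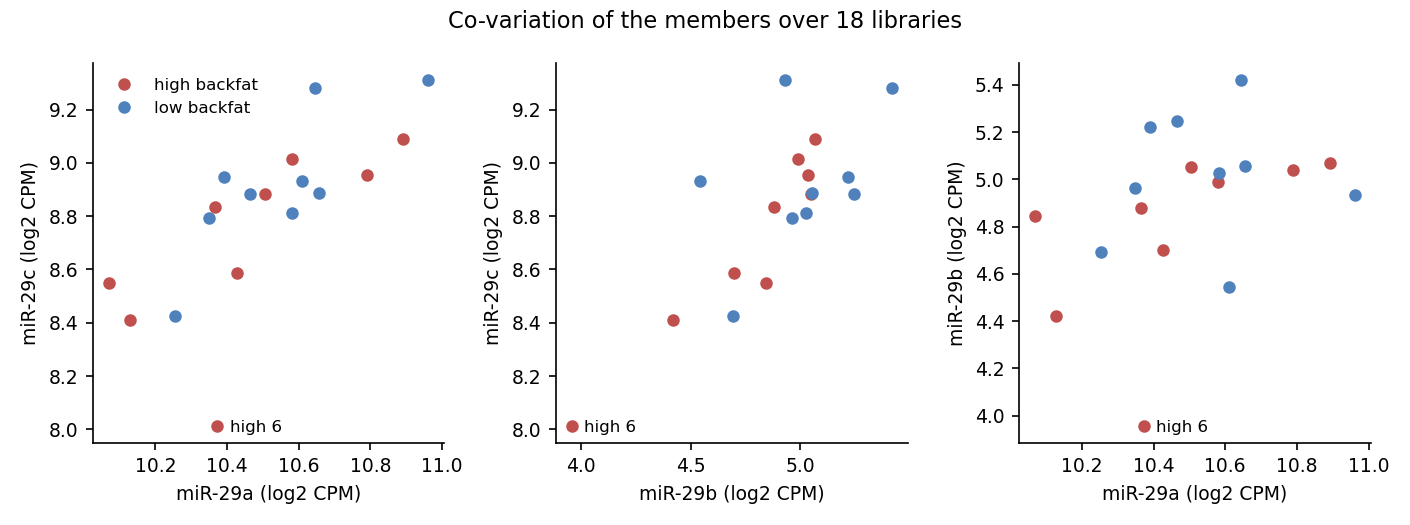
Log2 CPM of pairs of members over 18 libraries, on reads listed under 1 member alone: miR-29c against miR-29a (left), miR-29c against miR-29b (centre) and miR-29b against miR-29a (right); each point is 1 library. The pairs with miR-29c have rho = 0.83 and 0.66 and the third 0.50, and the labelled library, high replicate 6, lies lowest in miR-29b and miR-29c.

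Among 108 other miRNAs with a mean of at least 100 CPM, the pattern nearest to both miR-29a and miR-29c was that of miR-186, with rho of 0.82 to each over the 18 libraries. Next to miR-29a came miR-365-3p (rho 0.53), miR-148a-3p (0.49), miR-10b (0.47) and miR-10a-5p (0.46). Next to miR-29c came miR-10a-5p (0.69), miR-10b (0.69), miR-98 (0.67) and miR-374a-5p (0.64). Nearest to miR-29b were miR-24-3p (0.70), miR-30e-5p (0.68), miR-146a-5p (0.60), miR-10b (0.58) and miR-101 (0.58). These were picked as the highest of many and carry no test.

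Other miRNAs that are reported to act on collagen, matrix or fibrosis genes were counted from a list of 30 names, which gave 35 tested arms. Between the classes 0 were called higher and 2 lower in high backfat, 5.71% of the list against 3.62% of all miRNAs. The 2 were the arms of miR-199a, which is known to act in mesenchymal cells, with log2 fold changes of -0.50 ± 0.13 (miR-199a-3p) and -0.38 ± 0.09 (miR-199a-5p), both at an adjusted p of 0.0486 in edgeR (SE). Both calls were lost on leaving out any of 6 libraries (high replicates 1, 3 and 9, low replicates 5, 6 and 9), when 0 of all miRNAs were called, and 79.6% of the miR-199a-3p counts were in sequences also listed under miR-199b-3p. The list's median log2 fold change was -0.18, beside -0.03 over all 221 miRNAs, with 24 arms below 0 and 11 above. The matching split over all miRNAs was not counted. Some names entered with both arms, which are not independent, and others, such as miR-200a, with none. The 4 most abundant arms did not pass: miR-143-3p, at -0.03 ± 0.13, miR-148a-3p at -0.31 ± 0.17, miR-27b-3p at -0.12 ± 0.12 and miR-30a-5p at -0.15 ± 0.11 (log2 fold change, SE).

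Markers of other cell types were counted beside these values. The summed skeletal muscle markers, 5 names with 4 arms tested, ranged from 41.5 to 138.7 CPM with a median of 66.0 in high and from 72.4 to 211 CPM with a median of 116 in low backfat, with 0 arms called, and their rho with the 3 members lay between -0.18 and -0.03. The endothelial miR-126, with 2 arms, ranged from 15578 to 37817 CPM in high and from 20614 to 41361 CPM in low backfat, with rho of -0.51 to miR-29a, -0.02 to miR-29b and -0.20 to miR-29c. The mesenchymal markers, 5 names with 9 arms, ranged from 174039 to 261140 CPM in high and from 183825 to 226169 CPM in low backfat, with 2 arms called, those of miR-199a, and their rho lay between -0.23 and -0.12. The blood cell markers, 3 arms of red cells and 3 of leukocytes, had rho between -0.06 and 0.11. Of the epithelial markers the miR-200 family and miR-141 were not listed, and the summed rest was at most 17.1 CPM in high and 48.7 CPM in low backfat. The part of these cell types in the values of the family was not tested, and no marker of fat cells themselves was among the lists.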

How the data were processed

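Small RNA of 18 backfat samples was extracted with Trizol, prepared with Illumina's TruSeq Small RNA kit, and read on a GAII in 1 direction over 100 bases, 2 libraries to a lane, per the labels' protocols. The authors deposited raw counts, whole numbers per read sequence, precursor and mature miRNA, with a category (exact, shorter or longer, 1 or 2 mismatches). A second deposited table holds a signal, which is each raw count over a size factor of its library (0.464 to 1.93). Per the submitters' processing notes the tools included Bowtie 0.12.7, HTSeq and DESeq2 1.4.5, and the build was Sscrofa10.2, with no role or order. The settings of trimming and filtering were not given in the sources used here. 2 columns of values that match no sample were not used.

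Per mature miRNA, a sequence that was listed repeatedly entered once, with its highest count. Fits used R 4.3.3 with edgeR 4.0.16 (filterByExpr with a minimum count of 10, TMM, quasi-likelihood F test, Benjamini-Hochberg over all tested miRNAs or entries, threshold 0.05), on all 18 libraries with sex or class as covariate, or on 4 cells of sex by class. DESeq2 1.42.0 and limma 3.58.1 (log2 of the deposited signal plus 1) served as alternatives. SE comes from the F statistic, and the prior count of log2 CPM was 2. Shares and ratios were compared by exact two-sided permutation of 9 against 9, and correlations by 100000 permutations, in Python 3.11.15 (SciPy 1.17.1, NumPy 2.4.6, pandas 2.3.3), with plots from Matplotlib 3.10.9. The tests were tried on simulated data first. Shares of early starts and added adenines were defined after the data were seen, and adjusted over all miRNAs with a mean of at least 10 CPM. Whether precursor positions count from 0 or 1 is not stated in the table, and no genomic coordinates are given.

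The members and lists were chosen with earlier results of these data known. Named were the 3 members, the 5 most abundant forms of each, forms past the threshold, the 5 miRNAs with the highest Spearman rho to each member (mean of at least 100 CPM, under 1% of counts shared with a member), and the 4 most abundant arms of the list of collagen, matrix and fibrosis miRNAs. The 22-base miR-29b form is in that list too; miR-199a was named as called.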

Additional observations from a re-analysis of the deposited data

Results flagged for a closer look

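In 46 sets of 9 libraries of 1 class, 5 held a library whose gap to its nearest neighbour was wide for the range of its set. Chance alone gives about 1 in 20 such sets where values follow a normal distribution. The sets were not independent, since ratios share a member and the shares of forms add up to the whole. An excess over that rate was not tested. High replicate 6 had the lowest log2 ratio of miR-29b over miR-29a in its class, -6.42, with the next library at -5.82. It also had the lowest log2 ratio of miR-29c over miR-29a, -2.36, with the next at -1.84. In the low class, replicate 6 had the lowest share of length forms of miR-29a, 79.5%, next to 82.8%, and the highest share of 1-mismatch forms of miR-29a, 19.03%, next to 15.9%. Low replicate 1 had the highest share of 2-mismatch forms of miR-29b, 4.70%, next to 1.86%. The causes were not tested.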

How the results depend on the processing

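None of the 3 members passed an adjusted p of 0.05 in any of the 5 contrasts under any alternative tried. Between the classes, miR-29b and miR-29c kept log2 fold changes below 0 under each alternative, from -0.31 to -0.14 and from -0.29 to -0.14. That of miR-29a turned to 0.0083 in limma and to 0.016 when all listings of a read were summed, and in castrated males to -0.0496 once runs of library codes entered as a covariate. Without 1 library it ran from -0.017 to 0.10 for miR-29a between the sexes, and in castrated males between the classes from -0.028 to 0.15 for miR-29a, -0.24 to 0.030 for miR-29b and -0.16 to 0.026 for miR-29c. The causes were not tested.

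The background counts moved more. Of all miRNAs, 8 passed between the classes, but 1 did with DESeq2 size factors, 1 with no filter, 22 in DESeq2, and 0 in limma, with age as a covariate, or without the libraries coded AC485 to AC488, and 0 to 13 without 1 library. In castrated males 9 passed, 2 in limma, 5 with age, and 2 to 14 without 1 library. The contrast between the sexes' contrasts gave 3 in DESeq2 and 0 to 3 without 1 library. Of single sequences 0 passed, but 2 with DESeq2 size factors, 59 at a minimum mean of 10 CPM, 258 in DESeq2, 8 in limma, 11 with the base-2 mismatch rate as a covariate, and 0 to 29 without 1 library.

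The log2 ratio of miR-29b over miR-29c, near 0 in its difference, turned to 0.0074 in castrated males, 0.038 without the AC485 to AC488 libraries and 0.018 within runs of library codes, and ran from -0.084 to 0.012 without 1 library. In females the difference in miR-29a length forms was 0.834 points and in miR-29a and miR-29c 1-mismatch forms -1.18 and -1.17. In castrated males it was 0.327 for miR-29b 2-mismatch forms, -0.956 for the exact miR-29c and -0.389 for early starts of miR-29a. Within runs of codes the exact miR-29c gave -0.0915. Without the AC485 to AC488 libraries, miR-29a 2-mismatch forms gave -0.00736, and the exact miR-29a, at 0.272 points, passed with an adjusted p of 0.0200 in an exact permutation test. Without 1 library, differences ran from 0.231 to 0.302 points for the exact miR-29a, -0.484 to 0.215 for miR-29b 2-mismatch, -0.135 to 0.754 for exact miR-29c, -2.68 to -1.59 for miR-29c length and 0.527 to 0.720 for miR-29c 2-mismatch forms.

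Among named single forms, the log2 fold change of the 22-base miR-29a turned to -0.0763 with the run of codes, and that of its 22-base early start to -0.166, -0.019 and -0.068 with the run of codes, the base-2 rate and without the AC485 to AC488 libraries. The 20-base miR-29b turned to 0.014 in DESeq2 and 0.047 without those libraries. The miR-29c form with an added adenine turned to between 0.0058 and 0.043 (0.036, 0.043, 0.038, 0.037, 0.032 and 0.0058 with DESeq2 size factors, the 10 CPM minimum, DESeq2, limma, age and the base-2 rate). Without 1 library these 4 forms ran from -0.011 to 0.11, -0.054 to 0.089, -0.16 to 0.025 and -0.058 to 0.092. The early start of miR-29b with an added adenine, of 23 bases, passed in DESeq2 alone, at 0.90.

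No paired analysis was possible because replicate numbers only name libraries in accession order and each library is its own pig. Depth limits miR-29b most, with 275 counts in its shallowest library.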
